A study of Homo sapiens with 14 samples.

Results

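Integrins, collagens and laminins were taken from the gene tables by symbol: every gene named as an integrin alpha or beta chain, a collagen alpha chain, or a laminin alpha, beta or gamma chain. The rule found 80 genes among 17810 in the table of EGFP and OmoMYC libraries, and 82 among 19143 in the table of DMSO and dTAG47 libraries. The first set held 42 collagens, 17 integrin alpha subunits, 8 integrin beta subunits, 12 laminins and ITGBL1, which the rule caught by its name but which encodes an integrin beta-like secreted protein and not a receptor subunit. COL4A5 and ITGAX were rows of the second table only, with 0 reads in all 8 libraries and with at most 1 read, respectively.

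Integrins are receptors built from 1 alpha and 1 beta subunit, and the alpha subunit largely sets which ligand is bound. Laminins are heterotrimers of an alpha, a beta and a gamma chain and form the basement membrane together with the collagen IV network, to which integrins anchor the cell. Collagens are trimers as well: types I, V and XI build fibrils, type VI forms beaded filaments, and types such as IX, XII and XX decorate fibrils. Neuroblastoma arises from the sympathoadrenal branch of the neural crest, whose cells migrate over matrix of this kind.

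RNA-seq was performed on CHP-134, a human neuroblastoma cell line with amplified MYCN, the gene that encodes N-MYC. Engineered cells carried a doxycycline-inducible lentiviral transgene for either enhanced green fluorescent protein (EGFP, n = 3) or OmoMYC (n = 3), a dominant-negative derivative of MYC. Both received 1 μg/ml doxycycline over 3 days, so the drug is shared by control and OmoMYC libraries. Parental CHP-134 cells without a degradable tag received DMSO (n = 4) or 500 nM dTAG47 (n = 4), a degrader of FKBP12(F36V)-tagged proteins, with 18 hours of treatment per the labels. The first comparison asks what changes when MYC function is blocked by OmoMYC, and the second what the compound does in cells where it has no tagged target. The EGFP and OmoMYC cells are separately transduced lines. In the first comparison, an effect of OmoMYC thus cannot be told apart from a difference between the lines. Both lines also differ from the parental cells in transduction and serum, so levels across the tables are given side by side only.

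Libraries held 28060817 to 38358128 counts in the first table and 40861430 to 53451641 in the second. The MYC row, on which transgene reads can be counted, held 16 to 20 counts with EGFP and 15040 to 20295 with OmoMYC, while MYCN held 76335 to 84197 and 65298 to 84071. All 15 adrenergic neuroblastoma markers were detected, summing to 2139 to 2487 CPM (counts relative to the scaled library size) with EGFP and 2618 to 2762 CPM with OmoMYC. Of these 15 markers 8 were called induced with OmoMYC and 2 suppressed. Of 14 mesenchymal-state markers 10 were tested, 2 of them induced and 5 suppressed with OmoMYC. Counts of called markers, here and below, stand against 27.3% induced and 25.7% suppressed of all tested genes. The sum of the 14 mesenchymal-state markers was 470 to 512 CPM with EGFP against 628 to 652 CPM with OmoMYC. TBX18 alone moved from 3.88 to 262 CPM within that sum. The study's methods call the replicates biological, and no source used here says whether they were separate cultures, so p-values measure the spread between these libraries.

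Together the 80 genes made up 0.147% to 0.158% of an EGFP library and 0.173% to 0.189% of an OmoMYC library, and the groups did not overlap. In parental cells the shares were 0.129% to 0.132% with DMSO and 0.124% to 0.131% with dTAG47, which overlapped. The widest gap lay in the collagens, whose summed level was 478 to 608 CPM (median 512) with EGFP and 724 to 864 CPM (median 729) with OmoMYC. The sums of the integrin alpha subunits (162 to 179 against 172 to 184 CPM) and of the beta subunits (231 to 274 against 222 to 236 CPM) overlapped. Laminins summed to 551 to 586 CPM with EGFP and 584 to 614 CPM with OmoMYC, also overlapping.

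After the filter on low counts, 65 of the 80 genes could be tested in OmoMYC against EGFP, and 28 were induced and 14 suppressed at a false-discovery rate (FDR) of 0.05 in edgeR's quasi-likelihood test. Among all 13803 tested genes 27.3% were induced and 25.7% suppressed, and 53% were called in either direction, against 64.6% of the tested integrin, collagen and laminin genes. Their median log2 fold change was 0.25, against 0.01 over all tested genes, and it was 0.13 without EGFP replicate 2, 0.13 without OmoMYC replicate 2 and 0.12 without OmoMYC replicate 3. In 28 genes every OmoMYC library lay above every EGFP library, against 32% of all tested genes, and in 16 every one lay below, against 30.3%. The groups were thus apart in 67.7% of the members, close to the 62.3% of all tested genes. Changes of at least 1 on the log2 scale were called in 17 members (8.24% of all tested genes), 14 induced and 3 suppressed, against 6.68% and 1.56% of all tested genes. Of the 28 induced members 8 were under 10 counts in at least 1 library, among them COL20A1, COL11A2, LAMB4 and COL22A1. With at least 10 counts required in every library, 20 of 55 tested members were induced and 14 suppressed, with a median of 0.06. Under that filter 3580 of all tested genes were induced and 3390 suppressed, with a median of 0.01. After removal of the trend of fold change with GC content, gene-model length and gene span, 24 were induced and 20 suppressed, so that 54.5% of the called genes were induced in place of 66.7%, and the median was 0.04. Of all tested genes 31.5% were then induced and 27.1% suppressed, with a median of 0.03, close to the 0.04 of the members. The filter kept genes that are high in only 1 group, and the 15 genes left out were ITGA8, ITGA10, ITGAD, ITGAL, ITGAM, ITGB3, LAMA3, LAMA4, COL4A6, COL5A3, COL6A5, COL8A1, COL15A1, COL17A1 and COL21A1. Of these, ITGA10 and LAMA4 carry alternate-locus identifiers in this table, with at most 3 reads in any library; under their primary identifiers in the parental table they held 18 to 34 and 119 to 151 reads, so their low counts here cannot be read as absence.

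**Figure D1:**
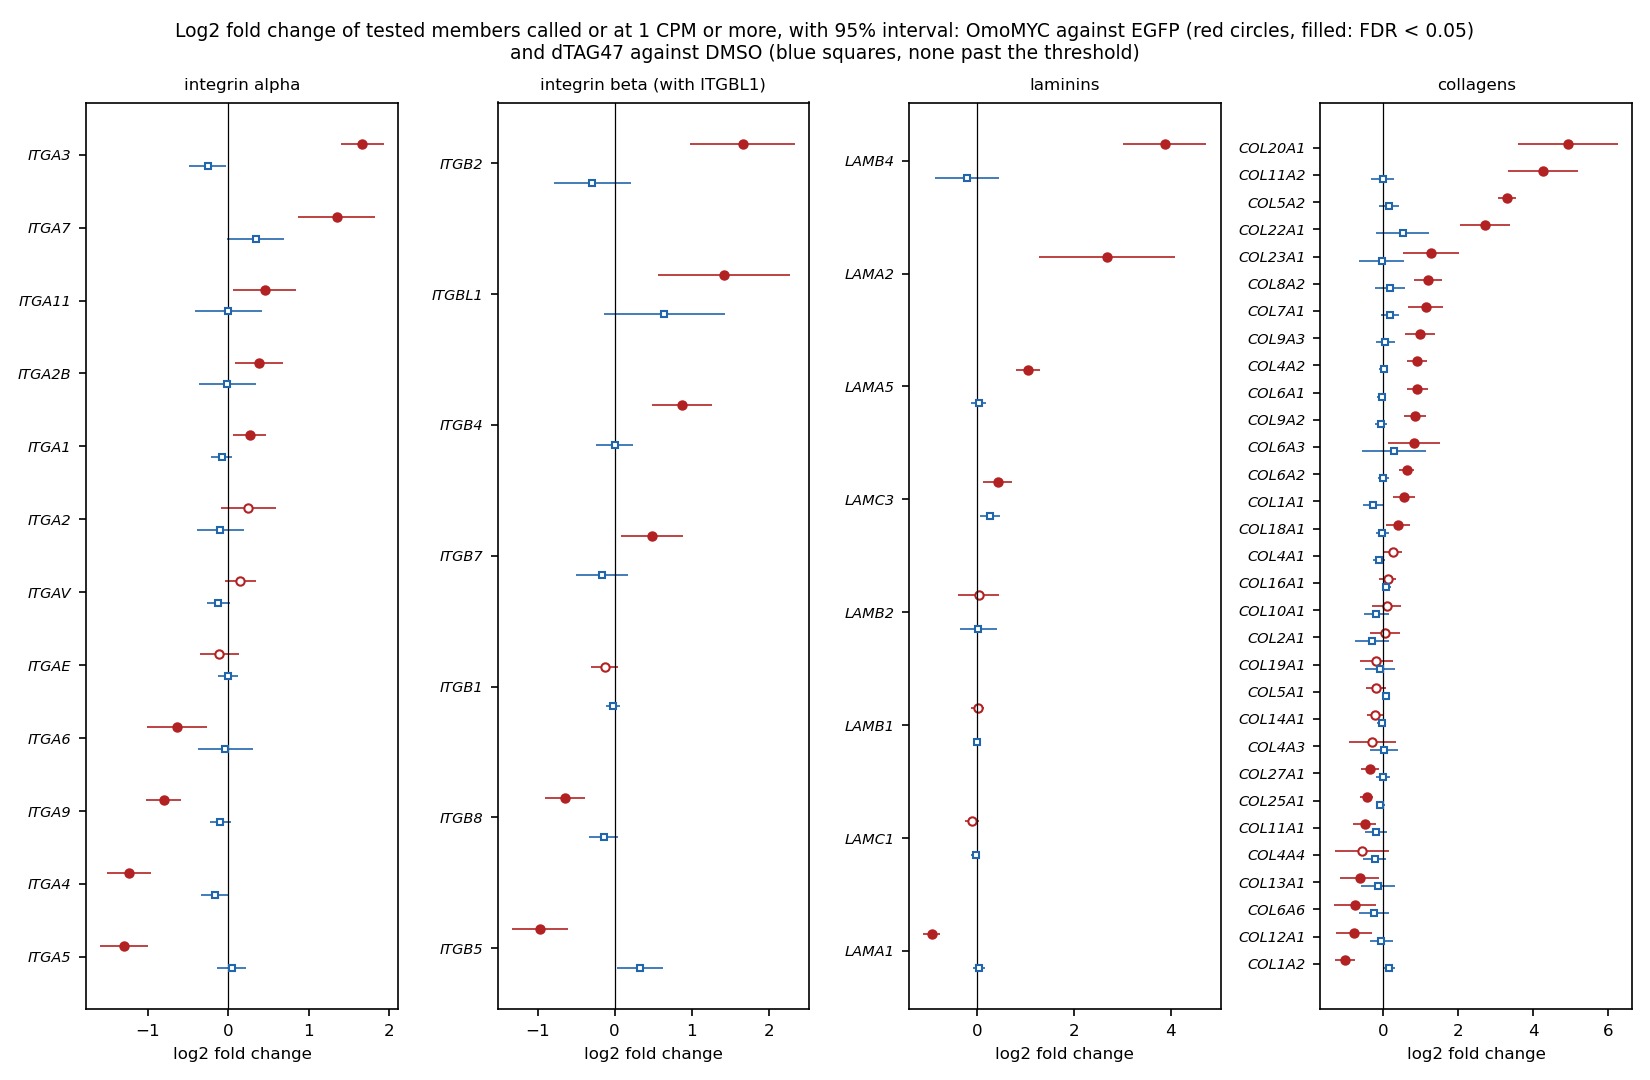
Log2 fold change (x axis) of the 58 tested genes (y axis) that were called with OmoMYC or averaged at least 1 CPM in EGFP or OmoMYC libraries, with the 95% interval, in OmoMYC against EGFP (red circles, filled where FDR is under 0.05) and in dTAG47 against DMSO (blue squares), for integrin alpha, integrin beta, laminin and collagen genes. In OmoMYC against EGFP 28 genes were called induced and 14 suppressed, while no square passed the threshold.

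Among receptors, the laminin-binding alpha subunits split. ITGA3, whose product pairs with ITGB1 and prefers laminins that contain the alpha-5 chain, stood at 6.91, 9.20 and 9.64 CPM in EGFP libraries and at 27.4, 26.2 and 27.9 CPM in OmoMYC libraries. It rose by 1.66 ± 0.12 (log2 fold change ± SE, adjusted p = 2.55e-06 by edgeR), 3.17-fold, and lay at 4.49 to 7.17 CPM in all parental libraries. ITGA7, the laminin receptor alpha subunit best known from muscle, rose from 1.07, 1.04 and 1.31 to 3.62, 2.85 and 2.27 CPM (log2 fold change 1.35 ± 0.22, adjusted p = 0.000513). ITGA6, which pairs with ITGB1 or ITGB4 in laminin receptors, went the other way, from 3.22, 2.65 and 2.82 to 2.05, 1.97 and 1.58 CPM (-0.63 ± 0.17, adjusted p = 0.00886). The groups did not overlap for any of the 3 genes. Within a library, ITGA3 had 2.15 to 3.47 times the counts of ITGA6 with EGFP and 13.3 to 17.6 times with OmoMYC. That ratio was 1.82 to 3.87 in the 8 parental libraries.

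**Figure D2:**
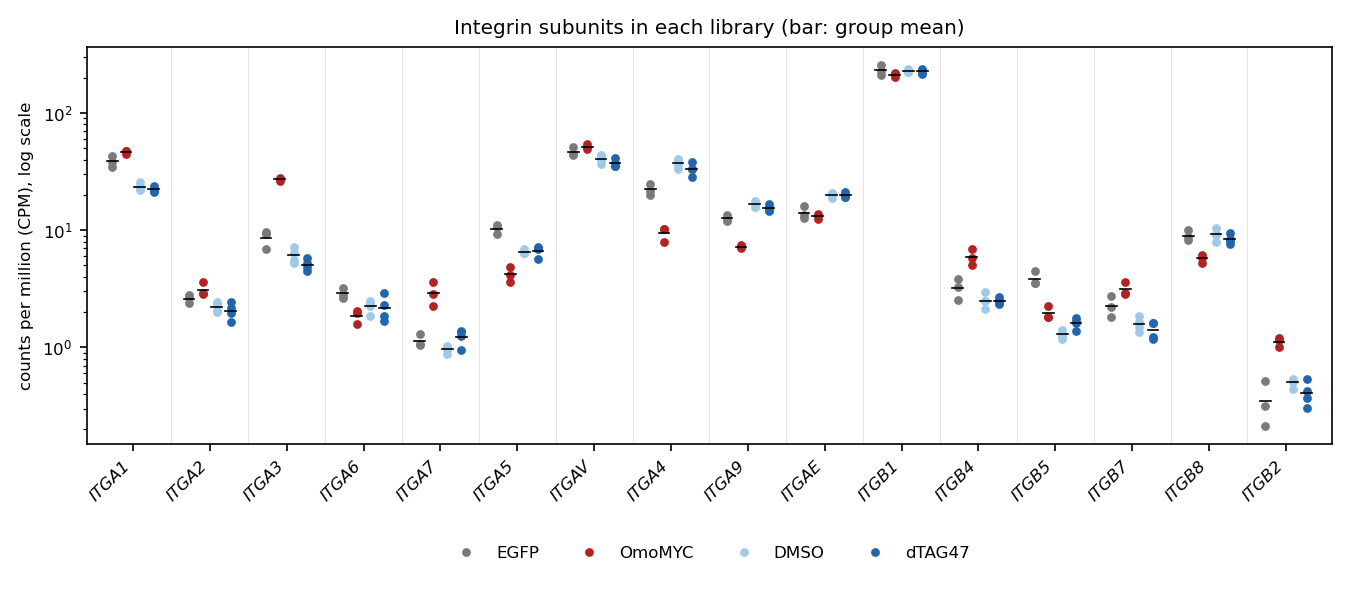
CPM on a log axis (y) of 16 integrin subunits (x) in each EGFP, OmoMYC, DMSO and dTAG47 library; points are libraries and bars are group means. ITGA3 in OmoMYC libraries (26.2 to 27.9 CPM) lies above all other groups, ITGA4, ITGA5 and ITGA9 lie below their EGFP libraries, and ITGB1 lies between 202 and 256 CPM throughout.

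The alpha subunits ITGA5, ITGA4 and ITGA9 fell. ITGA5, the alpha subunit of the classical fibronectin receptor, stood at 9.28, 11.1 and 10.6 CPM with EGFP and at 4.13, 4.83 and 3.62 CPM with OmoMYC (-1.29 ± 0.13, adjusted p = 3.26e-05). ITGA4, which binds fibronectin and VCAM1, stood at 25.0, 21.7 and 20.05 CPM with EGFP and at 10.2, 10.3 and 7.96 CPM with OmoMYC (-1.23 ± 0.12, adjusted p = 2.82e-05). ITGA9, the closest relative of ITGA4 and a receptor of tenascin, fell by 0.80 ± 0.10 (adjusted p = 9.83e-05) from 12.6 ± 0.751 (SD, n = 3) to 7.24 ± 0.240 CPM. All OmoMYC libraries were below all EGFP libraries in the 3 genes. ITGAV, the common partner of the RGD-binding beta subunits, did not pass the test (46.4 ± 4.43 and 51.5 ± 2.45 CPM, 0.15 ± 0.09, adjusted p = 0.166), and was called induced (0.50) once the sequence-feature trend was removed. Of the exon bases of ITGA4, 26.4% are shared with CERKL, and 9.23% of those of ITGA9 with ITGA9-AS1, both on the opposite strand. The strand setting of the counting is not given in the sources used here.

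Differences in the collagen-binding alpha subunits were small. ITGA1 was 38.6 ± 4.17 CPM with EGFP and 46.4 ± 1.86 CPM with OmoMYC (0.27 ± 0.09, adjusted p = 0.0293), and leaving out any single library other than EGFP replicate 1 ended the call, with adjusted p-values of up to 0.148. ITGA11 rose from 2.77 to 3.79 CPM (0.45 ± 0.17, adjusted p = 0.049), a call that 5 of the 6 single-library omissions ended, with adjusted p-values of up to 0.207, and that also ended with the trend removed (adjusted p = 0.0736). ITGA2 stood at 2.61 and 3.11 CPM (adjusted p = 0.196). ITGA2B, the platelet fibrinogen receptor subunit, was called (0.38 ± 0.13, adjusted p = 0.0345) but was at 0.04 with the trend removed, and 4 of the 6 omissions ended its call. ITGAE, whose product is a lymphocyte receptor of E-cadherin, was among the most abundant alpha subunits per length. It did not pass the test (14.1 ± 1.79 and 13.1 ± 0.625 CPM, adjusted p = 0.424). HASPIN on the opposite strand shares 6.47% of the exon bases of ITGAE. Of those of ITGA1, 7.47% are shared with ITGA2-AS1 on the opposite strand and 2.69% with PELO on the same strand.

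ITGB1, the beta subunit shared by most matrix-binding integrins, was the most abundant integrin at 15.9 CPM per kilobase of exon (RPKM) with EGFP and 14.5 RPKM with OmoMYC. Its libraries stood at 256, 227 and 211 CPM with EGFP and at 215, 217 and 202 CPM with OmoMYC, and the groups overlapped. Its log2 fold change was -0.13 (95% interval -0.31 to 0.05, adjusted p = 0.189); with the trend removed the value turned to 0.11 and was called (adjusted p = 0.00921). The next beta subunits per length, ITGB8 and ITGB5, were 0.593 and 0.590 RPKM with EGFP, far below ITGB1. Both are partners of ITGAV, and both fell: ITGB5 from 3.53, 3.55 and 4.44 to 1.81, 1.82 and 2.27 CPM (-0.97 ± 0.17, adjusted p = 0.000781), and ITGB8 from 8.77, 9.99 and 8.20 to 5.25, 5.81 and 6.18 CPM (-0.64 ± 0.12, adjusted p = 0.00127). ITGB4, the laminin receptor subunit of hemidesmosomes, rose from 2.56, 3.29 and 3.82 to 5.80, 5.04 and 6.97 CPM (0.88 ± 0.18, adjusted p = 0.00203).

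The beta chain and 3 alpha chains of the classical leukocyte integrins were scarce. ITGB2, the common beta chain of leukocyte integrins, held 10, 6 and 15 reads with EGFP and 35, 39 and 35 with OmoMYC (1.66 ± 0.31, adjusted p = 0.00128). Its alpha partners ITGAL, ITGAM and ITGAD were under the count filter, and the leukocyte marker list summed to 2.36 to 2.55 CPM with EGFP and 2.01 to 2.93 CPM with OmoMYC, with 0 of its 3 tested genes induced, PTPRC and CD14 suppressed, and PTPRC at 0.0392 CPM with OmoMYC. ITGB7 was called (0.49 ± 0.18, adjusted p = 0.0418), but 42.3% of its exon bases are shared with ZNF740 on the opposite strand, 5 of 6 single-library omissions ended the call (adjusted p up to 0.211), and with the trend removed it was at 0.20 (adjusted p = 0.329).

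Of 58 members with an entry among the RefSeq promoters (GRCh38.p14), 1 held the canonical E-box CACGTG, the preferred site of MYC proteins and its own reverse complement, in the 250 bases before an annotated start, as did 6.34% of all 35116 promoters. The member was ITGA6, with the motif 101 bases before the outermost start. The sequence is shown because it is the only one of its kind here, on the plus strand at chr2:172427086-172427335 with the E-box in capitals.
ITGA6 upstream: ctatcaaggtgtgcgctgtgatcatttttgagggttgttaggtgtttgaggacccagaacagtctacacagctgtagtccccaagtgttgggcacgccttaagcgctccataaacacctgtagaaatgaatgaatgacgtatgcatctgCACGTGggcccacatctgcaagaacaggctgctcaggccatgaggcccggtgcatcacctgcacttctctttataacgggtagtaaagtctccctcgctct
The variant CACGCG, read on both strands as CACGCG or CGCGTG, stood before 7 of the 58 members (12.1%) and 9.72% of all promoters. For both motifs a member counted once if any of its starts had the motif, while the background counted each promoter. The shares of members and of all promoters are thus in unlike units. Those members were COL8A2, COL11A2, COL23A1 and LAMA2, which were called induced, ITGB5 and COL25A1, which were called suppressed, and ITGA2, which was not called. No binding data enter here, and the letters say nothing of occupancy.

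Among the ligands, the most abundant laminin chains did not pass the test while the alpha chains moved apart. LAMB1 and LAMC1, the beta and gamma chains of the most common laminin trimers, were among the 4 highest members per length with EGFP, LAMB1 at 20.1 RPKM and LAMC1 at 12.3 RPKM, with COL6A1 (17.7 RPKM) and ITGB1 (15.9 RPKM) between them. LAMB1 alone took 24.2% to 25.2% of all member counts in EGFP libraries and 28.8% to 29.8% in DMSO libraries. Its libraries stood at 376, 363 and 384 CPM with EGFP and at 373, 376 and 381 CPM with OmoMYC, with a log2 fold change of 0.01 (95% interval -0.12 to 0.14). LAMC1 stood at 104, 102 and 105 CPM with EGFP and at 96.3, 94.7 and 98.5 CPM with OmoMYC, where the groups were apart but the change (-0.10 ± 0.06) did not pass the test (adjusted p = 0.19). With the trend removed, LAMB1 turned to -0.14 and LAMC1 to -0.16, and both were called (adjusted p = 0.00455 and 0.00121).

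LAMA5, the broad adult alpha chain and the preferred ligand of the ITGA3 receptor, rose from 34.6, 39.1 and 47.3 to 76.6, 82.3 and 92.1 CPM (1.05 ± 0.12, adjusted p = 4.91e-05). LAMA1, the embryonic alpha chain, fell from 29.0, 29.8 and 30.4 to 15.6, 14.8 and 16.2 CPM (-0.94 ± 0.08, adjusted p = 9.29e-06). With the trend removed LAMA5 was at 0.62 and LAMA1 at -1.12, both called. Neither pair of groups overlapped, and the counts of LAMA5 relative to LAMA1 went from 1.19, 1.31 and 1.55 with EGFP to 4.90, 5.56 and 5.67 with OmoMYC. In parental cells the same ratio was 0.732 to 0.904 with DMSO and 0.771 to 0.907 with dTAG47. LAMC3, a gamma chain of neural and vascular matrix, was called in OmoMYC (11.8 ± 1.74 to 15.8 ± 2.05 CPM, 0.42 ± 0.13, adjusted p = 0.0201), but omission of EGFP replicate 2 or OmoMYC replicate 3 ended the call (adjusted p up to 0.132), and the value was 0.01 with the trend removed. A lncRNA on the opposite strand shares 10.3% of the exon bases of LAMA1.

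LAMB4, a little-studied beta chain whose gene lies beside LAMB1 on chromosome 7 (GRCh37, 107663993 to 107770806, against 107564244 to 107643658 for LAMB1), went from 7, 2 and 2 reads to 70, 62 and 51 reads. This corresponded to 0.120 and 1.89 CPM (3.88 ± 0.39, adjusted p = 2.67e-05), while LAMB1, its neighbour, did not pass the test. In parental cells LAMB4 averaged 0.369 CPM (DMSO) and 0.317 CPM (dTAG47). LAMB2 and LAMB3 did not pass the test, with log2 fold changes of 0.04 and -0.04. LAMA2, the merosin chain of muscle and nerve, rose from 5, 0 and 1 reads to 11, 22 and 12 reads (2.68 ± 0.64, adjusted p = 0.00524). Markers of endothelium, a source of basement membrane in tissues, summed to 0.310 to 0.631 CPM with EGFP and 1.17 to 2.56 CPM with OmoMYC, with EMCN at 0 reads. Of its 7 genes 2 were tested and KDR was induced, from 0.0555 to 1.33 CPM, which made up most of the difference. Schwann cell markers summed to 8.30 to 11.1 and 8.94 to 9.83 CPM, with 1 of 6 tested induced and 2 suppressed. The part of either list in these results was not tested.

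**Figure D3:**
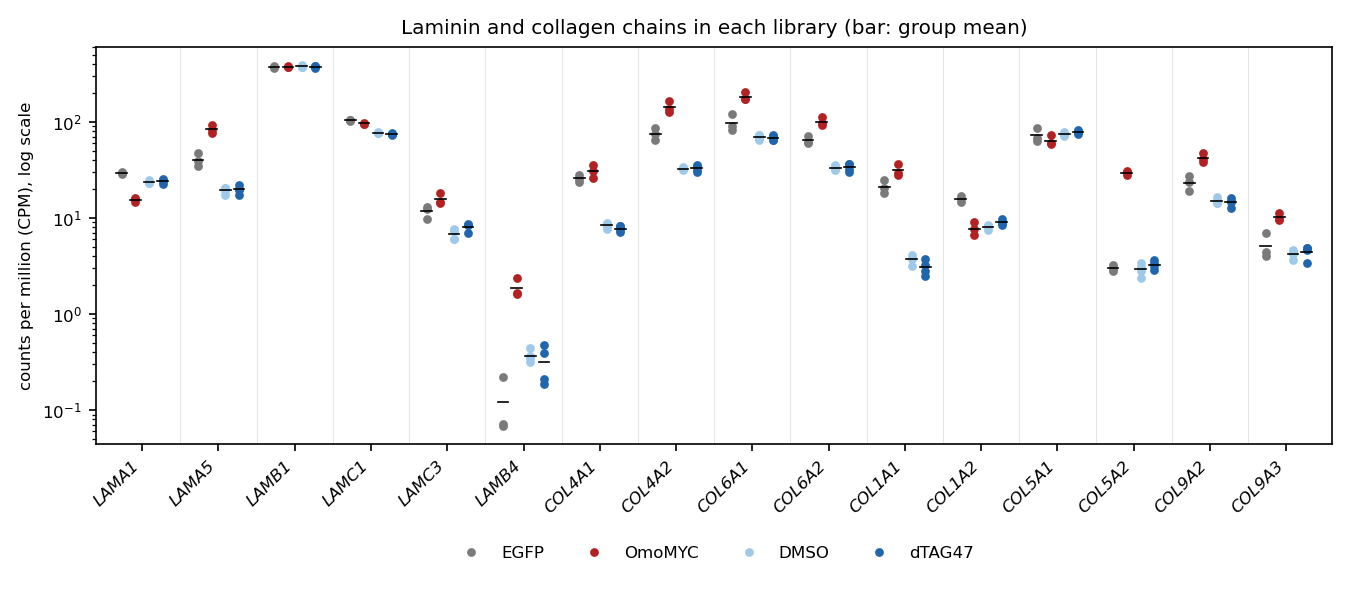
CPM on a log axis (y) of 16 laminin and collagen genes (x) in each EGFP, OmoMYC, DMSO and dTAG47 library; points are libraries and bars are group means. LAMB1 lies between 363 and 392 CPM in all 14 libraries, LAMA5 rises while LAMA1 falls with OmoMYC, and COL5A2 is at 28.2 to 30.7 CPM with OmoMYC against 2.39 to 3.65 CPM in all other libraries.

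Of 35 collagens tested, 15 were induced and 7 suppressed, against 27.3% and 25.7% of all tested genes. The collagen VI genes COL6A1 and COL6A2 were the highest collagens per length. COL6A1 rose from 82.6, 91.4 and 120 to 173, 175 and 204 CPM (0.91 ± 0.13, adjusted p = 0.000226) and COL6A2 from 60.8, 62.6 and 72.2 to 97.2, 93.4 and 112 CPM (0.63 ± 0.09, adjusted p = 0.000348). These genes encode 2 of the chains that assemble collagen VI and lie on chromosome 21 (GRCh37, 47401684 to 47424964 and 47518026 to 47552762). With the trend removed COL6A1 was at 0.55 and COL6A2 at 0.24, and both were still called. The third classical chain, COL6A3, was at 0.347 to 0.586 CPM with EGFP and 0.658 to 0.986 CPM with OmoMYC, and its call (0.83 ± 0.31, adjusted p = 0.0446) ended in 5 of the 6 single-library omissions and with the trend removed (adjusted p = 0.0992). COL6A1 relative to COL6A2 was 1.36, 1.46 and 1.66 with EGFP and 1.78, 1.87 and 1.82 with OmoMYC. In parental libraries that ratio was higher than in both, 2.05 to 2.21 with DMSO and 1.96 to 2.17 with dTAG47.

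COL4A1 and COL4A2, the chains of the common basement membrane collagen, are transcribed in opposite directions from chromosome 13 (GRCh37, 110801310 to 110959504 on the minus strand and 110958159 to 111165556 on the plus strand). COL4A2 rose from 65.4, 75.2 and 86.6 to 127, 135 and 166 CPM (0.92 ± 0.12, adjusted p = 0.000151), and no library overlapped; with the trend removed it was called at 0.40. COL4A1 stood at 25.7, 23.8 and 28.2 CPM with EGFP and at 26.2, 31.0 and 35.9 CPM with OmoMYC, overlapping (0.26 ± 0.12, adjusted p = 0.0798; -0.07 with the trend removed). The counts of COL4A2 relative to COL4A1 were 2.55, 3.16 and 3.07 with EGFP and 4.85, 4.36 and 4.63 with OmoMYC. In parental libraries, where both genes were lower (8.37 and 32.6 CPM with DMSO), that ratio was 3.60 to 4.23 with DMSO and 4.18 to 4.32 with dTAG47.

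The stretch between the RefSeq starts of both genes is shown because its ends are their starts and only COL4A2 of the pair was called. It spans 126 bases, chr13:110307158-110307283 in GRCh38.p14, on the strand that reads toward COL4A2, and capitals mark the GC box GGGCGG and the CCAAT box, searched on both strands.
COL4A1 to COL4A2: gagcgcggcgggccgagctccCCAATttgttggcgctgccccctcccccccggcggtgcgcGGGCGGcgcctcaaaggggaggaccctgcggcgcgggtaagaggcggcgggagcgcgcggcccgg
It held 1 of each box and no CACGTG. In the last 126 bases before the start, GGGCGG was present in 34.6% of all promoters, CCAAT in 21.1% and both in 7.39%. COL4A3 and COL4A4, the neighbouring pair of the kidney and sensory basement membranes, stood at 1.02 and 1.44 CPM with EGFP and neither was called (adjusted p = 0.425 and 0.171), and COL4A6 held 1 to 3 reads with EGFP and was not tested.

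The fibrillar collagens did not move together. COL5A2, a chain of the fibril-nucleating collagen V, rose from 2.97, 3.26 and 2.79 to 30.7, 28.2 and 30.1 CPM, 9.86-fold (3.30 ± 0.10, adjusted p = 3.69e-09), and lay at 2.39 to 3.65 CPM in all parental libraries. COL5A1, its partner chain, stood at 63.5, 68.1 and 86.3 CPM with EGFP and at 58.7, 60.4 and 72.5 CPM with OmoMYC (-0.19, 95% interval -0.45 to 0.08, adjusted p = 0.218; -0.66 and called with the trend removed). COL5A1 thus had 21.4, 20.9 and 30.9 times the counts of COL5A2 with EGFP and 1.91, 2.14 and 2.41 times with OmoMYC. For collagen I, the main fibrillar collagen, COL1A1 rose from 18.1, 20.6 and 25.0 to 29.8, 28.2 and 36.5 CPM (0.57 ± 0.13, adjusted p = 0.00466) and COL1A2 fell from 14.6, 15.7 and 16.9 to 7.64, 6.70 and 9.01 CPM (-1.02 ± 0.12, adjusted p = 8.36e-05). With the trend removed COL1A1 was at 0.19 and COL1A2 at -0.80, both called. Their ratio was 1.24, 1.31 and 1.48 with EGFP and 3.90, 4.21 and 4.05 with OmoMYC, against 0.388 to 0.504 in DMSO libraries. In DMSO libraries COL1A1 averaged 3.74 CPM and COL1A2 8.12 CPM, the latter within the range of the OmoMYC libraries. COL3A1, the usual fibril partner of collagen I, averaged 0.333 CPM (EGFP) and 0.342 CPM (OmoMYC). Both collagen I genes are in the fibroblast marker list, of which 3 of 7 tested were induced and 3 suppressed. It summed to 159 to 175 CPM with EGFP and 140 to 155 CPM with OmoMYC, with FAP at no more than 1 read in any of these libraries, and its part in these results was not tested.

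**Figure D4:**
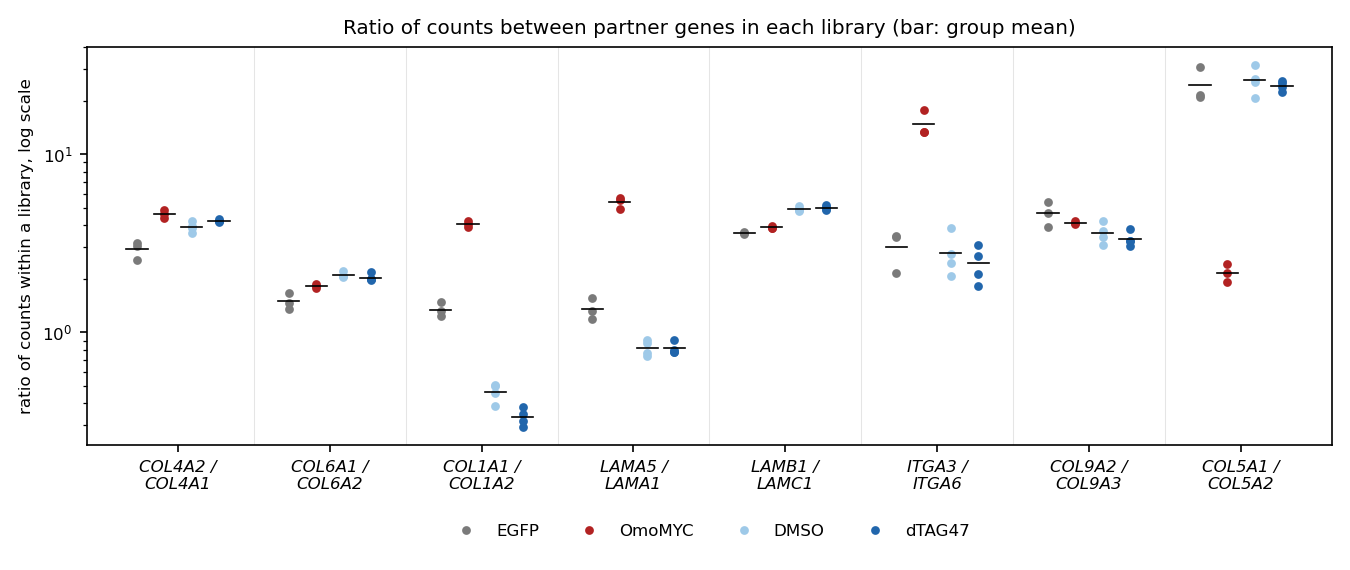
Ratio of the counts of 2 partner genes within each library (y, log axis) for 8 pairs (x); points are libraries, coloured by group, and bars are group means. With OmoMYC the COL1A1/COL1A2, LAMA5/LAMA1 and ITGA3/ITGA6 ratios lie above, and the COL5A1/COL5A2 ratio below, those of every other group.

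The 8 ratios were tested over libraries with the exact two-sided permutation test, in which 3 libraries against 3 cannot give a p below 0.1. In 7 of the 8 ratios the EGFP and OmoMYC libraries were apart and the exact test gave p = 0.1 (adjusted p = 0.114 over 8 ratios), the exception being COL9A2/COL9A3 (p = 0.4). The COL4 and COL6 ratios followed from a rule on neighbouring genes, and the other 6 were chosen after the values were seen. With dTAG47, where 4 against 4 can reach 0.0286, COL1A1/COL1A2 was 0.5, 0.455, 0.504 and 0.388 with DMSO and 0.294, 0.319, 0.381 and 0.350 with dTAG47 (p = 0.0286 by the exact test, the smallest it can give, adjusted p = 0.229), and the other 7 ratios overlapped.

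Several collagens that were scarce with EGFP rose. COL22A1, found at tissue junctions, went from 9, 12 and 22 reads to 72, 143 and 104 reads (2.72 ± 0.30, adjusted p = 4.93e-05). COL20A1, a fibril-associated collagen, held 2, 0 and 0 reads with EGFP and 26, 30 and 23 with OmoMYC, a ratio of 35.6 after scaling with a 95% counting interval of 9.55 to 299. COL11A2, a chain of cartilage fibrils, held 3, 1 and 1 reads with EGFP and 36, 37 and 40 with OmoMYC, a ratio of 20.4 (8.49 to 64.0). The COL11A2 row of this table carries an alternate-locus identifier, and reads at the primary locus, which held 68 to 101 reads in each parental library, may not be in it.

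Moderate rises were found in COL8A2, a short-chain collagen of the cornea and vessels (2.01 to 4.64 CPM, 1.20 ± 0.16, adjusted p = 0.000198), and in COL7A1, the anchoring fibril of skin (1.65 to 3.64 CPM, 1.14 ± 0.22, adjusted p = 0.00145). COL9A2 rose from 19.1, 23.8 and 27.4 to 40.8, 38.2 and 47.7 CPM (0.85 ± 0.13, adjusted p = 0.000416), together with its partner chain COL9A3 (0.99 ± 0.18, adjusted p = 0.00126), and their ratio was 3.92 to 5.36 with EGFP and 4.05 to 4.19 with OmoMYC. COL23A1, a transmembrane collagen, was called (1.29 ± 0.34, adjusted p = 0.0085) but not with the trend removed (0.72, adjusted p = 0.065). The other suppressed collagens were COL12A1, COL6A6, COL13A1, COL11A1, COL25A1 and COL27A1, with log2 fold changes of -0.77, -0.74, -0.62, -0.48, -0.43 and -0.35. Omission of any single library ended the call of COL13A1 (adjusted p up to 0.146), omission of EGFP replicate 1, OmoMYC replicate 2 or OmoMYC replicate 3 that of COL6A6 (up to 0.0882), and omission of OmoMYC replicate 1 that of COL27A1 (0.0658). COL18A1, the source of endostatin, was called induced (14.2 to 18.7 CPM, 0.40 ± 0.15, adjusted p = 0.0414) although its libraries overlapped. 4 of the 6 omissions ended that call (adjusted p up to 0.22), and 18.5% of its exon bases are shared with SLC19A1 on the opposite strand. ITGBL1, caught by name, rose from 7, 5 and 3 reads to 14, 17 and 14 reads (1.42 ± 0.39, adjusted p = 0.0106). FGF14 on the opposite strand shares 70.5% of the exon bases of ITGBL1.

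**Figure D5:**
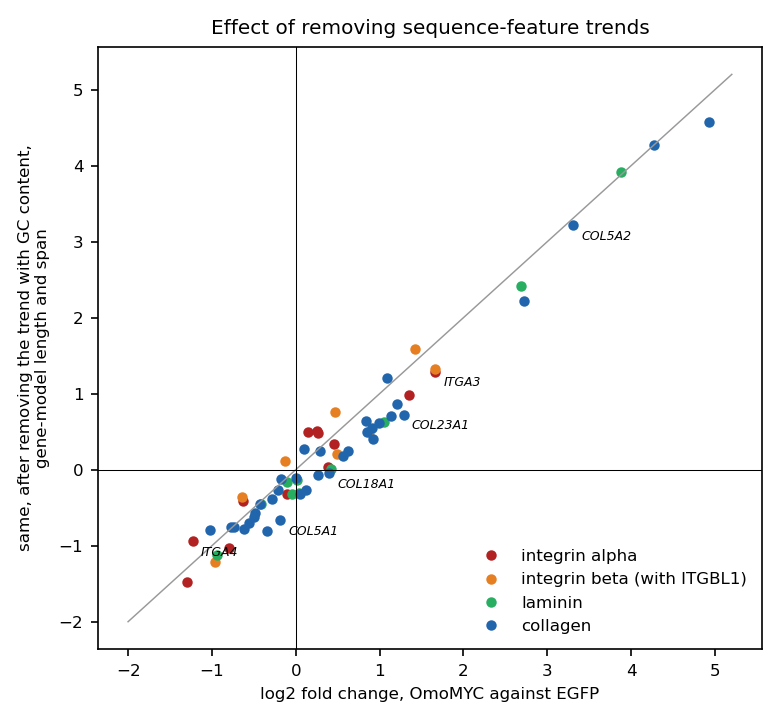
Log2 fold change of tested members in OmoMYC against EGFP as fitted (x) and after removing the trend with GC content, gene-model length and span (y), coloured by family; the grey line marks equal values. COL5A2 (3.30 and 3.22) lies near the line, while COL22A1 (2.72 and 2.22), COL23A1 (1.29 and 0.72), COL18A1 (0.40 and -0.05) and COL5A1 (-0.19 and -0.66) lie below it.

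Genes that work with these proteins were followed in 5 lists, whose counts stand against 27.3% induced and 25.7% suppressed of all tested genes. Basement membrane partners and other laminin and collagen receptors had 15 of 27 tested genes induced and 6 suppressed, with a median log2 fold change of 0.40. The nidogens, which bridge laminin and collagen IV, moved in opposite directions: NID2 rose from 7.34 ± 1.13 to 36.1 ± 0.310 CPM (2.29 ± 0.11, adjusted p = 9.34e-08) and NID1 fell from 25.6 ± 1.66 to 13.1 ± 0.913 CPM (-0.96 ± 0.09, adjusted p = 2.09e-05). BCAM, a non-integrin receptor of the laminin alpha-5 chain, went from 0.0894 to 11.4 CPM (adjusted p = 3.71e-08), and HMCN1, a basement membrane hemicentin, from 18.0 to 6.67 CPM (adjusted p = 2.39e-06).

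Among integrin adaptors and focal adhesion genes, 11 of 37 tested were induced and 6 suppressed (median 0.10). LIMS2 (0.374 to 1.94 CPM) and the kinase PTK2B (5.90 to 9.37 CPM) rose the most among those above 1 CPM, and TES (32.9 to 11.5 CPM) and the focal adhesion kinase PTK2 (219 to 175 CPM) fell the most. Of 29 other integrin ligands and matrix glycoproteins, 9 were induced and 6 suppressed (median 0.06). RELN, the reelin glycoprotein, rose from 84.8 to 293 CPM (1.79 ± 0.06, adjusted p = 8.65e-09), COMP from 0, 1 and 2 reads to between 144 and 199 reads, and THBS1 and EFEMP1 fell (-1.37 and -1.29).

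Collagen processing genes had 7 of 32 induced and 7 suppressed (median -0.05): the cross-linking oxidase LOXL4 (7.80 to 25.2 CPM) and the lysyl hydroxylase PLOD1 (62.1 to 104 CPM) rose, and the prolyl hydroxylase subunit P4HA1 (21.3 to 11.99 CPM) and the galactosyltransferase COLGALT2 (1.71 to 0.909 CPM) fell. Matrix proteases and inhibitors had 11 of 34 induced and 5 suppressed (median 0.02): the plasminogen activator PLAT (2.13 to 20.4 CPM) and MMP11 (5.73 to 14.8 CPM) rose, and ADAMTS9 (-1.38) and ADAMTS20 (-0.55) fell. Over the 5 lists 53 of 159 tested genes were induced and 30 suppressed. With the trend removed these were 54 and 46, where 31.5% and 27.1% of all tested genes were called.

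In parental cells, dTAG47 gave no call. Of 82 members 68 were tested, and edgeR called 0, as did DESeq2 and limma-voom. Of all 14470 tested genes 0.159% were called, 0.117% induced and 0.0415% suppressed. At an unadjusted p under 0.05 there were 6 members, and 1053 of all tested genes. No member had groups that did not overlap, against 3.34% of all tested genes (1.87% above and 1.47% below), and the median log2 fold change was -0.01. The interval of the fold change lay within ±0.5 on the log2 scale for 42 of the 68 genes and within ±1 for 62. For the abundant LAMB1 it ran from -0.09 to 0.07, for ITGB1 from -0.11 to 0.06 and for LAMC1 from -0.12 to 0.06.

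The smallest unadjusted p-values with dTAG47 belonged to LAMC3, COL8A1, ITGA3, ITGB5 and COL1A2, each with an adjusted p of 0.673 in edgeR. LAMC3 stood at 6.03, 6.05, 7.25 and 7.70 CPM in DMSO libraries and at 6.94, 8.50, 8.70 and 8.44 CPM in dTAG47 libraries (0.27 ± 0.10). ITGA3 stood at 5.21, 5.59, 7.17 and 6.42 CPM in DMSO libraries, and the dTAG47 libraries held 4.49, 5.27, 5.75 and 4.85 CPM (-0.25 ± 0.11). ITGB5 was at 1.32, 1.19, 1.41 and 1.24 CPM and then at 1.62, 1.39, 1.69 and 1.78 CPM (0.33 ± 0.14). The signs of ITGA3 and ITGB5 were opposite to those with OmoMYC, as was that of COL1A2 (7.56, 8.46, 8.22 and 8.25 CPM with DMSO, 8.40, 8.89, 9.84 and 9.33 CPM with dTAG47, 0.17 ± 0.07), but none of these passed the test. COL8A1 was at 0.191 to 0.281 CPM with DMSO and 0.270 to 0.427 CPM with dTAG47. Whether the response to OmoMYC differed from that to dTAG47 was not tested, since lines, times and tables differ.

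DMSO replicates 1 and 2, and likewise 3 and 4, differed less within each pair than across the pairs, which did not hold for dTAG47, where replicate 1 differed more from replicate 2 than from replicate 3. With a term for replicates 1 and 2 against 3 and 4 in both groups, 5.49% of all tested genes were called, 2.58% induced and 2.9% suppressed, and among the members LAMC3 was induced (0.27, adjusted p = 0.0318) and ITGA4 suppressed (-0.16, adjusted p = 0.0445), 2 of 68. ITGA4, singled out after its values were seen, stood at 40.6, 39.7, 36.0 and 33.3 CPM in DMSO libraries, and the dTAG47 libraries held 33.5, 38.4, 33.0 and 28.5 CPM, so the groups overlapped. In the edgeR fit without that term, 160 genes of the 5 lists were tested with dTAG47. DDR1, a collagen receptor kinase, was the single call there (44.2 ± 1.47 to 52.7 ± 1.73 CPM, 0.25 ± 0.05, adjusted p = 0.0476). With the term more genes of the lists were called, as given in the last section.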

How the data were processed

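Per the study's methods and the labels, the authors aligned total-RNA reads, after ribosomal depletion, to hg19 with STAR and counted them per gene with featureCounts; versions, annotation, strand and multi-mapping settings are not given in the sources used here. The deposited values are raw counts per gene, with no normalization. Members were matched by symbol; members, lists and the rule for named genes were chosen with earlier results of these data known. The rule named called members with a log2 change of at least 1 and 1 CPM, the 5 highest of each family, neighbouring collagen genes, genes at or under 3 counts in one group, and the 5 smallest p-values with dTAG47. Each table was fitted on its own with edgeR 4.0.16 (R 4.3.3): TMM factors, filterByExpr, robust quasi-likelihood test, Benjamini-Hochberg over all tested genes, threshold 0.05. CPM values are TMM-scaled; RPKM used the union of exons (GENCODE on GRCh37), found for 77 of 80 and 82 of 82 members. Alternatives used DESeq2 1.42.0, limma 3.58.1, other scalings and filters, and omission of each library. The study used DESeq2. Same-numbered libraries were checked for pairing. The fit was tested on simulated counts. Intervals of count ratios cover counting error only. Exon overlaps are given with the strand of the other gene, while the strand setting of the counting is not known. The values of 1 laminin gene are not reported here.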

Additional observations from a re-analysis of the deposited data

Results flagged for a closer look

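In 98 groups of 4 libraries in the parental table, 7 held a library far from the others by Dixon's test, and chance gives about 1 in 20 groups. DMSO replicate 2 was low for COL12A1 (1.19 CPM against 1.27 to 1.28 CPM in the others). DMSO replicate 1 was high for COL25A1 (32.7 against 28.2 to 28.9 CPM) and DMSO replicate 4 was high for LAMB1 (392 against 375 to 378 CPM). In dTAG47 replicate 2, COL9A3 was low (3.38 against 4.68 to 4.89 CPM), while COL10A1 (2.65 against 1.77 to 1.81 CPM) and COL25A1 (30.2 against 27.2 to 27.7 CPM) were high. LAMC3, the member with the smallest p with dTAG47, was low in dTAG47 replicate 1 (6.94 against 8.44 to 8.70 CPM). The groups of 3 EGFP and 3 OmoMYC libraries were not put to this test.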

How the results depend on the processing

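Of the 42 members called with OmoMYC, 32 were called in every single-library omission and 35 each with DESeq2 and, in the same direction, with the sequence-feature trend removed, where 9 others were newly called. Over these omissions 21 to 28 members were induced and 12 to 15 suppressed. Of all tested genes 2698 to 4065 were induced and 2842 to 4184 suppressed in the same fits. Against a minimum change of 1.5-fold 14 members were induced and 4 suppressed, fewer by the construction of that test. Of all 13803 tested genes that test called 945 induced and 239 suppressed. With the trend removed COL18A1 turned to -0.0462, COL4A1 to -0.0654, ITGB1 to 0.11 and LAMB1 to -0.14, and 46 associated genes were suppressed in place of 30; the cause was not tested. LAMB1, at 0.01, was at -0.00878 with DESeq2, -0.00466 with RLE factors and -0.0363 to 0.0175 over the omissions. The median of the members was 0.12 to 0.24 over the omissions, 0.32 with DESeq2, 0.33 without a filter and 0.06 with at least 10 counts in every library. The median of all tested genes was -0.02 to 0.01, 0.02, 0.03 and 0.01 in these settings. Same-numbered libraries had correlations of deviations of 0.08, -0.07 and 0.29 (EGFP, OmoMYC) and 0.01, 0.11, 0.10 and 0.16 (DMSO, dTAG47). Since not every pair passed 0.1, the numbers were not taken as pairing the libraries. A replicate block gave 30 induced and 14 suppressed members with OmoMYC, and 1 induced and 1 suppressed with dTAG47. Over all tested genes the block gave 4233 induced and 3867 suppressed in place of 3766 and 3545 with OmoMYC, and 306 and 362 in place of 17 and 6 with dTAG47. The term for replicates 1 and 2 against 3 and 4 also gave 1 and 1 with dTAG47. With that term 16 associated genes were induced and 3 suppressed, where 2.58% and 2.9% of all tested genes were. Precision is limited by counting for members at a few reads.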
